A study of Mus musculus with 21 samples.

Results

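Beyond the alpha-globin genes on mouse chromosome 11 lies a flank that holds the gene Sh3pxd2b. It is set by coordinates, from 32205000 to 32347000 in mm9, with the gene at about 32247000 to 32328000. Its contacts were read by 4C-seq, which measures how often other parts of a chromosome are ligated to 1 chosen fragment, the viewpoint. The files give a value every 1000 bp. On the flank lie 713 of the 1855 positions in the 5 alpha-globin libraries together, and the whole series of 21 libraries holds 14771 positions.

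Of the 5 libraries, 3 had the Hba-a1 promoter as the viewpoint, in fetal liver, in fetal liver with 1/16 of the template in the PCR, and in fetal brain. The other 2 used HS-26, the strongest known enhancer of these genes, in fetal liver and fetal brain. All came from C57BL/6 embryos at 14.5 days post coitum, and organs of several embryos were pooled, with the equivalent of 2 livers or 4 brains per preparation. Cells were fixed in 2% formaldehyde for 10 minutes, and the DNA was cut with DpnII and then Csp6I. Each group was 1 library, so no difference has a replicate check and no test was run. The data hold no expression values, so the tissue labels were not checked against marker genes.

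Sh3pxd2b encodes an adaptor protein with a PX domain and several SH3 domains, also called TKS4. It works in podosomes, the actin-rich protrusions with which cells attach to and degrade the matrix around them, and loss of the human gene causes Frank-ter Haar syndrome. The alpha-globin genes beside it are expressed in the erythroid cells of the fetal liver and are silent in the brain. Contact frequency generally decreases with distance along the chromosome, so a gene near a viewpoint gives signal without being its target. In the RefSeq gene table of GRCm38.p6, the lncRNA gene Gm46275 and the theta-globin gene Hbq1a precede Sh3pxd2b on the globin side. The pseudogene Gm51948 and the protein-coding gene Ubtd2 follow it.

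The promoter of Sh3pxd2b is shown because it lies at the end of the gene that faces the globin genes. Both brain libraries had their lowest 5 kb bin on the flank there. RefSeq places it on the plus strand at chr11:32347590-32347889 of GRCm38.p6, a build other than that of the 4C positions, so these coordinates cannot be set against them. The window runs from 250 bases before to 50 after the start site, and capitals mark GATC, the site cut by DpnII.
Sh3pxd2b promoter: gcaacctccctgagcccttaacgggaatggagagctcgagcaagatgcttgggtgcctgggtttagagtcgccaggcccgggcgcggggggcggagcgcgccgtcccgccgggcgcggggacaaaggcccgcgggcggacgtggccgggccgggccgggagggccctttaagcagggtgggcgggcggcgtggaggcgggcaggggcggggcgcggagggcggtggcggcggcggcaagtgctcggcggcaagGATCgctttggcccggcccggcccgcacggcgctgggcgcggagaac
The promoter holds 1 GATC, 3 bases past the start site, and no GTAC, the site cut by Csp6I (both sites read the same on either strand, and they do not overlap here). GATC occurs in 48% and GTAC in 35.8% of 32851 RefSeq promoter windows of the same length. The Sh3pxd2b window has 42 CpG and 77.3% G or C, against medians of 7 CpG and 52.7%, and 97% of windows have fewer CpG. How the cutting sites or the base composition bear on the 4C signal was not tested.

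Signals below are the middle value of the 5 kb smoothing window, divided by the mean of the library beyond 10 kb of its viewpoint, and are called relative signal. A relative signal of 1 is the average of the library. From the Hba-a1 promoter (32184894) the flank begins at 20.1 kb and ends at 162.1 kb, and from HS-26 (32149000) it spans 56 to 198 kb. No source used here gives read numbers, so depth is unknown and no counting error can be attached. Many positions share a single recurring value. Over the gene body the full-template Hba-a1 liver library had 9 distinct values and the HS-26 liver library 6, against 58 and 48 in the brain libraries and 13 with 1/16 template. Low values on such plateaus have no order.

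Sh3pxd2b itself was contacted least in the full-template liver library of the Hba-a1 promoter. Its mean relative signal over the gene body was 0.00759 there, 0.270 with 1/16 template and 0.444 in brain. In the first of these, 40 of 82 positions were empty and 30 more held the commonest value of the library, and 2 positions lay above that value. In brain no position was empty and 77 of 81 lay above the commonest value. With 1/16 template 51 of 81 positions held the commonest value, 0.334 in relative signal, so the mean of that library over the gene is close to this plateau. From HS-26 the gene body averaged 0.111 in liver and 0.347 in brain. The HS-26 liver positions took mostly the commonest value (39 of 82) or the lowest (37), and none exceeded the former.

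As deposited, with the level at the viewpoint as the unit, the Hba-a1 libraries gave the gene body a mean signal of 0.000314 in liver, 0.0134 with 1/16 template and 0.0136 in brain. The HS-26 libraries gave 0.000512 in liver and 0.00555 in brain. On this scale the diluted liver library and the brain library were nearly level over the gene, while the full-template liver library was far below both.

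**Figure D1:**
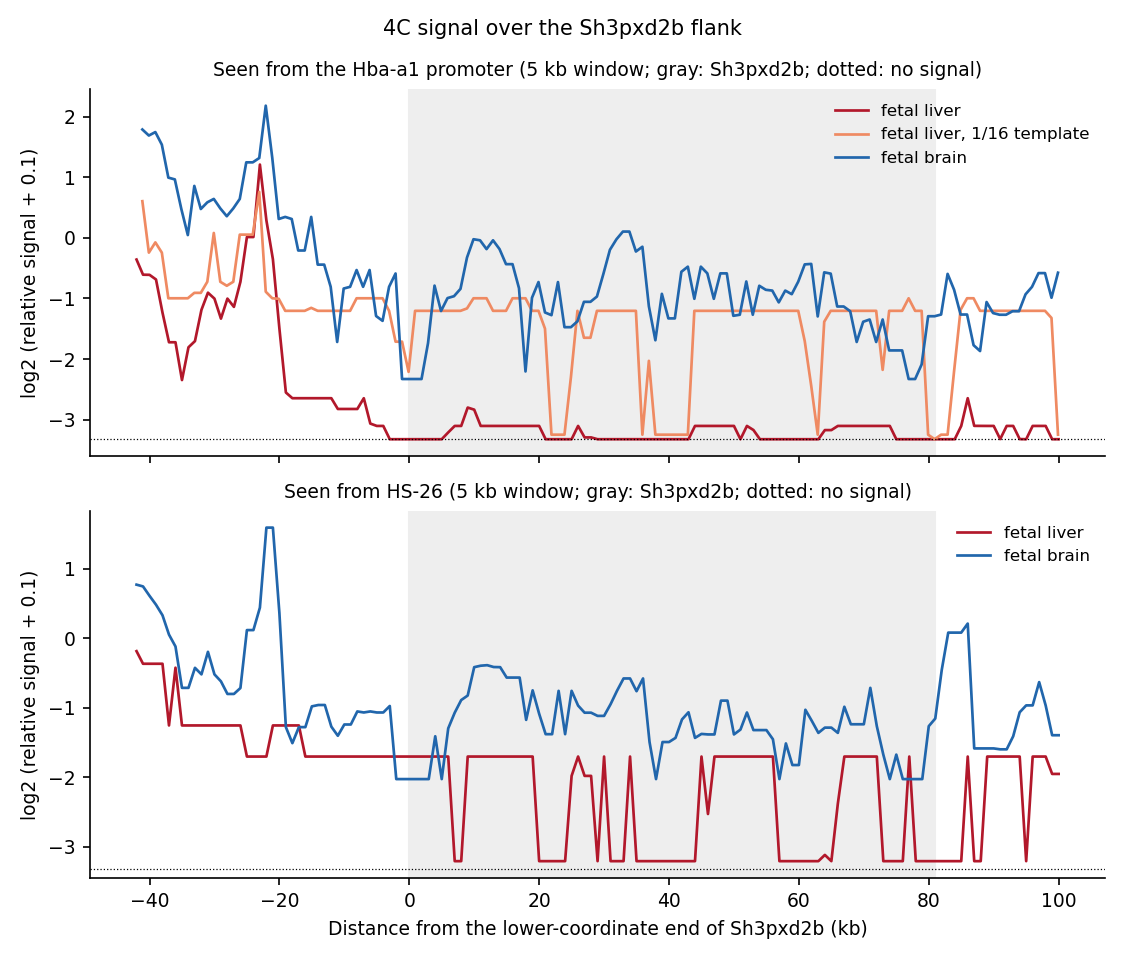
Relative signal of the 5 kb window, plotted as log2 (relative signal + 0.1), against the distance from the lower-coordinate end of Sh3pxd2b in kb, with 1 line per library and the gene in gray. Brain lines lie above the full-template liver lines over nearly all of the flank, the Hba-a1 liver line runs at or near no signal over the gene, and a peak 22 to 23 kb before the gene stands out in every library except HS-26 in liver.

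Signal along the gene did not run down evenly. Seen in brain by the Hba-a1 promoter, the 4 equal segments of the gene, counted from the globin side and 20.2 kb long each, had relative signals of 0.507, 0.507, 0.459 and 0.311. Full-template liver had 0.0138, 0.00103, 0.00713 and 0.00809, so the second segment was lowest. The diluted library was also lowest in the second segment, with 0.355, 0.183, 0.285 and 0.260. From HS-26 in liver the second segment was lowest too, with 0.180, 0.0603, 0.122 and 0.0794. HS-26 in brain had 0.420, 0.388, 0.295 and 0.284. The 3 liver libraries thus had their lowest value in the second segment, and both brain libraries in the fourth. The liver means rest largely on empty positions and on the plateaus described above, whose low values have no order. In HS-26 brain the last 2 segments were nearly level, at 0.295 and 0.284. The split by tissue is therefore a description only.

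**Figure D2:**
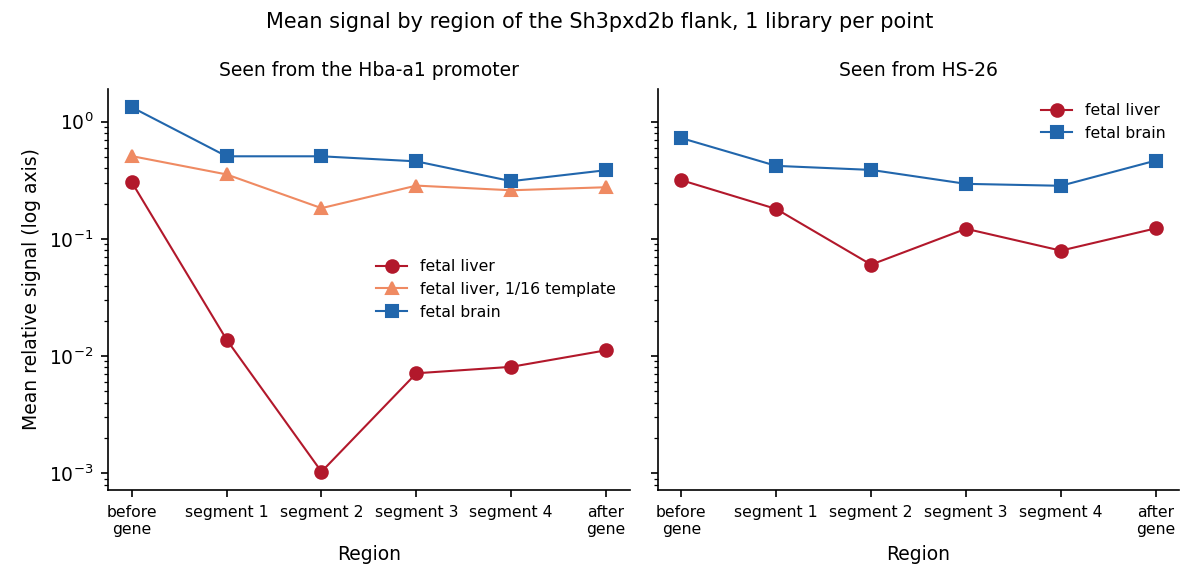
Mean relative signal (log axis) in 6 regions of the flank, from the stretch before Sh3pxd2b through the 4 segments of the gene to the stretch after it, with 1 library per line and no error bars because each group is 1 library. From the Hba-a1 promoter the full-template liver line drops to 0.00103 in segment 2 while the brain line stays between 0.311 and 0.507 over the gene. From HS-26 the liver line lies below the brain line in all 6 regions.

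The end of the gene that faces the globin cluster, where its promoter lies, was a low point in brain from both viewpoints and in full-template liver from the Hba-a1 promoter, but not in the other 2 libraries. Within 5 kb of it, relative signal from the Hba-a1 promoter was 0.00299 in full-template liver, 0.293 with 1/16 template and 0.273 in brain. The bin of 32245000 to 32250000 was the lowest of the 28 bins of 5 kb on the flank in brain, for the Hba-a1 promoter (0.119) and for HS-26 (0.146). The first is close to the commonest value of its library, 0.099, and the second equals that of its library, so both lie on or near a plateau. In full-template liver from the Hba-a1 promoter this bin was 1 of 4 empty bins, and the other 3 began further on, at 32285000, 32305000 and 32325000. HS-26 in liver had its lowest value, 0.00853, in those same 3 bins. The diluted library was lowest in the bin at 32285000 (0.00532). With 1/16 template the lower end was at 0.293 against 0.270 over the gene body, and with HS-26 in liver at 0.208 against 0.111. From HS-26 all 11 positions around the lower end held the commonest value of the liver library, 0.208, while the brain library averaged 0.224. The log2 ratio of liver over brain was -0.07 here, on a liver value that is a plateau.

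Between the globin side and the gene, the first 42 kb of the flank had the highest signal. From the Hba-a1 promoter this stretch averaged 0.305 in full-template liver, 0.509 with 1/16 template and 1.33 in brain, and from HS-26 0.317 in liver and 0.725 in brain. It exceeded the gene body 40.2-fold in full-template liver, 1.88-fold with 1/16 template and 2.99-fold in brain for the Hba-a1 promoter, and 2.86-fold in liver and 2.09-fold in brain for HS-26. The large step in the first library came with the empty positions over the gene described above.

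A narrow site 22 to 23 kb before Sh3pxd2b was the highest maximum of the flank in 4 of the 5 libraries. It lay at 32224000 from the Hba-a1 promoter in full-template liver, with a relative signal of 2.21, at 32223894 with 1/16 template (1.59) and at 32224894 in brain (4.43). From HS-26 in brain it lay at 32225000, with 2.92. The window values around these middle values were wide: as deposited, the liver signal of 0.0915 lay between 0.0106 and 0.281, and the Hba-a1 brain signal of 0.136 between 0.0345 and 0.349. Relative to the distance decay fitted to each library, the maximum stood at 0.529 in full-template liver and 0.511 with 1/16 template. It stood at 2.07 in brain and at 3.33 from HS-26 in brain. In both Hba-a1 liver libraries the site was thus below the signal fitted for its distance, and in both brain libraries above it. That decay was fitted over both sides of the viewpoint, and for the Hba-a1 promoter the other side holds HS-26. At the distances of the first 42 kb of the flank, that side averaged 5.4 in full-template liver, against a fitted 2.65. In brain it averaged 1.82, against 1.61. The fit is thus no neutral reference, and its part in these values was not tested. HS-26 in liver had 0.208 at 32225000, its commonest value, and its only maximum on the flank was a plateau at 32217000 with 0.320.

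The site was sharp. From the Hba-a1 promoter in liver, the mean 6 to 12 kb further on toward the gene was 0.0545, and on the globin side 0.277. In brain these were 0.596 and 1.34, and from HS-26 in brain 0.353 and 0.607. With the 2 kb window the highest value between 32221894 and 32227000 was 3.28 in full-template liver and 4.31 with 1/16 template. It was 7.09 in brain and 3.65 from HS-26 in brain. These values lay at 32223000 and 32223894 in liver, but at 32226894 and 32227000 in brain, at the upper end of that stretch. The 2 kb window thus gave no common position. With the 20 kb window the site no longer stood above its globin side in any of these 4 libraries, with 0.403 against 0.543, 0.481 against 0.725, 1.40 against 1.77 and 0.521 against 0.778. It was assigned to no gene, since the gene table is of another build.

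Inside the gene, a weaker maximum lay 9 to 12 kb from its lower end in 4 of the 5 libraries. The Hba-a1 promoter had it at 32256000 in full-template liver (0.0436) and at 32256894 in brain (0.884) and with 1/16 template (0.401), and HS-26 had it at 32259000 in brain (0.666). The diluted value was shared by 6 neighbouring positions and is a plateau. HS-26 in liver stood at its commonest value there. Brain from the Hba-a1 promoter had a further maximum at 32279894, 32.9 kb into the gene, with 0.974. At that place the full-template liver library was empty, and HS-26 had 0.571 in brain and 0.00853 in liver.

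After the gene, relative signal was between 0.869 and 1.48 times that over the gene body. From the Hba-a1 promoter it was 0.0112 in full-template liver, 0.276 with 1/16 template and 0.386 in brain, and from HS-26 0.123 in liver and 0.466 in brain. A maximum at 32333000, 86 kb past the lower end of the gene, appeared from HS-26 in brain (1.06) and from the Hba-a1 promoter in full-template liver (0.0598). The liver value also stood at other positions of that library, such as 32229000 and 32235000, and its lower window value was 0. It is thus too low to count as a shared site. With the 2 kb window the HS-26 brain signal between 32331000 and 32335000 was 0, so the narrower window showed no maximum there.

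The comparison of fetal liver with fetal brain asks how the active and the silent globin locus differ in their contacts. Seen from the Hba-a1 promoter, Sh3pxd2b was lower in full-template liver than in brain (0.00759 against 0.444), a log2 ratio of relative signal + 0.1 of -2.34. The ratio was -1.82 before the gene and -2.13 after it. Without the added 0.1, the gene body differed 58.5-fold, a size that rests on nearly empty positions. Of the matched positions on the flank 94.4% were lower in liver past 2-fold and 0 higher, while over all 326 positions 76.4% were lower and 7.36% higher. Over the gene body 76 of 82 were lower. The median over all positions was -1.87 and over the flank -2.17, against -1.32 outside it, so positions off the flank were mostly lower in liver too. When each library was scaled to its median, 26.8% of flank positions were higher and 40.1% lower (47.2% and 24.5% of all), the mean over the whole flank turned from -2.01 to 1.98, and the gene body kept -0.82.

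Over the gene body the window values of full-template liver and brain rarely met. At 66 of 82 positions the higher window value in liver lay below the lower one in brain, against 40.8% over all positions. Before the gene this held at 2 of 42 positions and after it at 19 of 20, so it was not particular to the gene. The smallest difference on the flank was at 32224000, at the site before the gene. There liver, at its maximum, had 2.21 and brain 2.39, a log2 ratio of -0.11. The brain maximum lay beside it, at 32224894, with 4.43 against 1.12 in liver, so the -0.11 does not compare the 2 maxima. The largest difference was at 32280000, inside the gene, where liver was empty and brain had 0.974. After division by the distance decay of each library the log2 ratio over the gene body was -0.34, and with the diluted liver library in place of the full one -0.56. With the diluted library 21 of 81 positions of the gene body were lower than brain past 2-fold and 5 higher, against 18% and 11.5% outside the flank. Its window values lay below those of brain without overlap at 2 of 81 positions, against 1.64% outside the flank. The counts above thus hold for the full-template library only.

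Seen from HS-26, Sh3pxd2b was lower in liver than in brain too (0.111 against 0.347), with a log2 ratio of -1.08, and of -0.98 before and -1.34 after the gene. On the flank 47.6% of positions were lower past 2-fold and 0 higher, and over all 325 positions 48.6% were lower and 4.31% higher. The flank share is close to that of the whole profile and so is no result about the flank, and the medians were -0.95 on the flank and -0.96 over all positions. Over the gene body 50 of 82 positions were lower, and before the gene 9 of 43. Window values did not overlap at 4 of 82 positions of the gene body, against 5.85% over all positions. The gap was widest at 32225000, the site before the gene, with 0.208 in liver and 2.92 in brain. As deposited, without scaling, 94.4% of flank positions were lower in liver and 0 higher (89.2% and 0.923% of all). Scaled to the median, 34.3% were lower and 7.69% higher, against 25.8% and 19.4% of all 325. The log2 ratio over the gene body was -0.11 with the distance decay divided out.

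**Figure D3:**
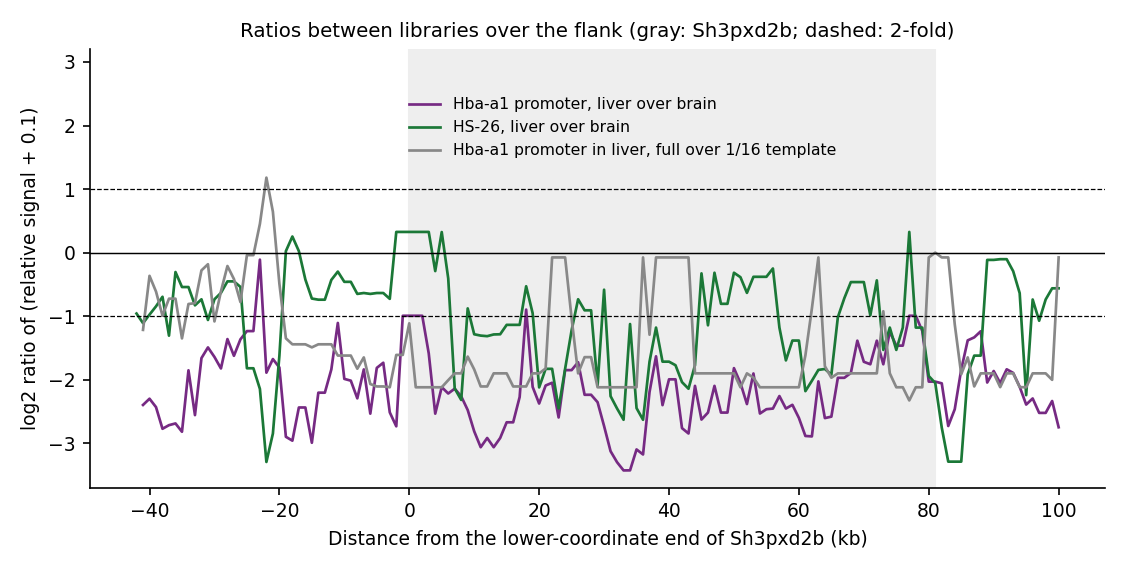
The log2 ratio of (relative signal + 0.1) against the distance from the lower-coordinate end of Sh3pxd2b, for liver over brain from each viewpoint and for full over 1/16 template in liver. Dashed lines mark 2-fold. The Hba-a1 liver over brain line comes closest to 0 (-0.11) at the liver maximum of the site before the gene, 32224000. The brain maximum lies beside it, at 32224894. The HS-26 line has its lowest value (-3.29) at 32225000. Scaling to the median instead of the mean turned the sign of the whole-flank mean from the Hba-a1 promoter.

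The diluted library sets the only technical yardstick, and it was not close to its full-template partner here. Over the gene body full template was lower than 1/16 template (0.00759 against 0.270), a log2 ratio of -1.78, against -0.59 in the stretch before the gene. On the flank 73.9% of positions were lower past 2-fold and 0.704% higher, against 65.6% and 2.45% of all 326 positions, and with scaling to the median 29.6% were lower and 26.1% higher, against 20.6% and 49.4% of all. Window values did not overlap at 14 of 82 positions of the gene body, against 14.1% over all positions. The 1 position above 2-fold was 32225000, at the site before the gene, with 1.12 in full template and 0.440 with 1/16. Over 28 bins of 5 kb the log2 ratio of this pair had an SD of 0.70. Over Sh3pxd2b the ratio of -1.78 between the liver libraries stood beside -2.34 between full-template liver and brain. The part of the full-template library in the tissue difference was not tested. The 2 comparisons share that library.

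**Figure D4:**
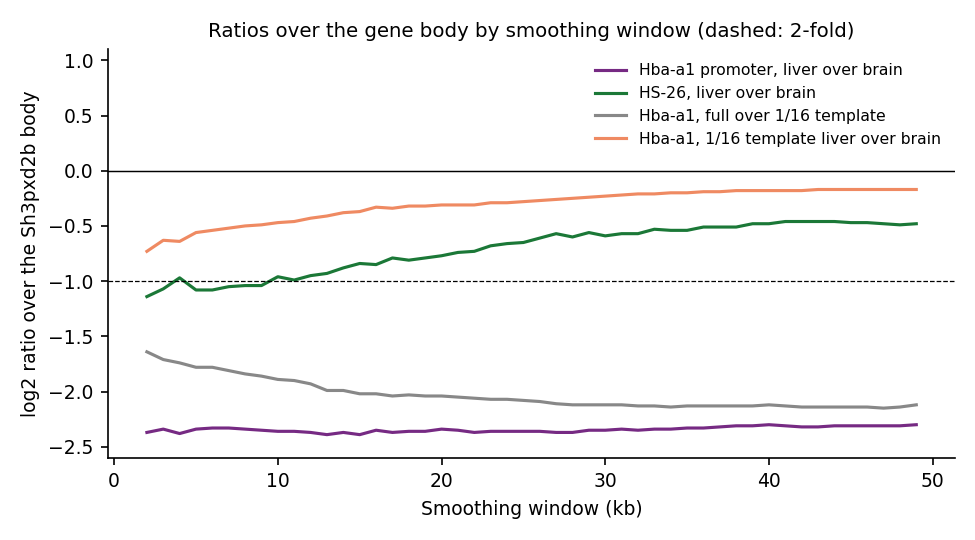
The log2 ratio over the Sh3pxd2b body against the smoothing window in kb, for the 2 tissue comparisons, the template pair and the diluted liver library over brain. All 4 lines stay below 0 in all 48 windows. The Hba-a1 liver over brain line moves only between -2.39 and -2.30, while the HS-26 line goes from -1.14 at 2 kb to -0.48 at 49 kb. The former rests on liver values far below the 0.1 added to each signal, which hardly change the ratio.

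With 0.1 added to each signal, the window moved the Hba-a1 full-template ratio little and the others more. Full-template liver had 0.00699 over the gene with the 6 kb window and 0.0149 with the 40 kb window. The ratios to brain were -2.33 and -2.30. Liver values so far below the added 0.1 hardly change the ratio, so its steadiness is no check on the liver signal. The sweep over all windows was chosen after seeing the data. In each of the 48 windows of 2 to 49 kb the gene body stayed lower in full-template liver past 2-fold from the Hba-a1 promoter. From HS-26 it was lower in all 48 and past 2-fold in 7. The diluted liver library was below brain in all 48 and never past 2-fold, between -0.73 and -0.17. Wide windows leave out positions at the end of the files, so they cover slightly different stretches.

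How much of the whole contact profile fell on the flank differed between the libraries. Seen by the Hba-a1 promoter, within 162.1 kb on both sides and beyond 10 kb, the flank took 4.28% of the signal in full-template liver, 15.2% with 1/16 template and 30.9% in brain. It made up 46.9% of the positions in the first and 46.7% in the others. The gene body alone took 0.191%, 6.88% and 11.2%. From HS-26, whose lower side ends at 147 kb, the 92 flank positions within that reach took 6.05% in liver and 16.5% in brain, with 33.6% of the positions.

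Within each library, the flank was set beside the same distances on the other side of the viewpoint. For the Hba-a1 promoter that side includes the enhancer HS-26 itself, so it is no neutral reference, and a low ratio can also come from high signal there. The stretch at these distances toward HS-26 held 74% of the signal seen by the Hba-a1 promoter in full-template liver, 63.9% with 1/16 template and 46.2% in brain. Region by region, the ratio of the Sh3pxd2b side to that side in full-template liver was 0.0565 before the gene, 0.0242, 0.0164, 0.161 and 0.266 in the 4 segments, and 1.18 after the gene. In brain it was 0.732, then 0.472, 0.496, 0.544 and 0.904, and 1.3 after the gene. With 1/16 template it was 0.133 before the gene, then 0.418, 0.472, 0.934 and 0.893, and 1.02 after the gene. In all 3 libraries the ratio was thus below 1 up to segment 4 and above it after the gene. It was lowest in segment 2 in full-template liver, before the gene with 1/16 template and in segment 1 in brain. In full-template liver the ratio after the gene sets 0.0112 against 0.00953, both below the commonest value. From HS-26 the stretch before the gene was at 1.54 in liver and 1.02 in brain, so the flank was at or above the other side there. In segment 1 it stood at 1.73 in liver and 1.5 in brain, and in segment 2 at 0.338 and 1.44. Within 5 kb of the lower end of the gene the ratio was 1.77 in liver and 0.522 in brain.

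**Figure D5:**
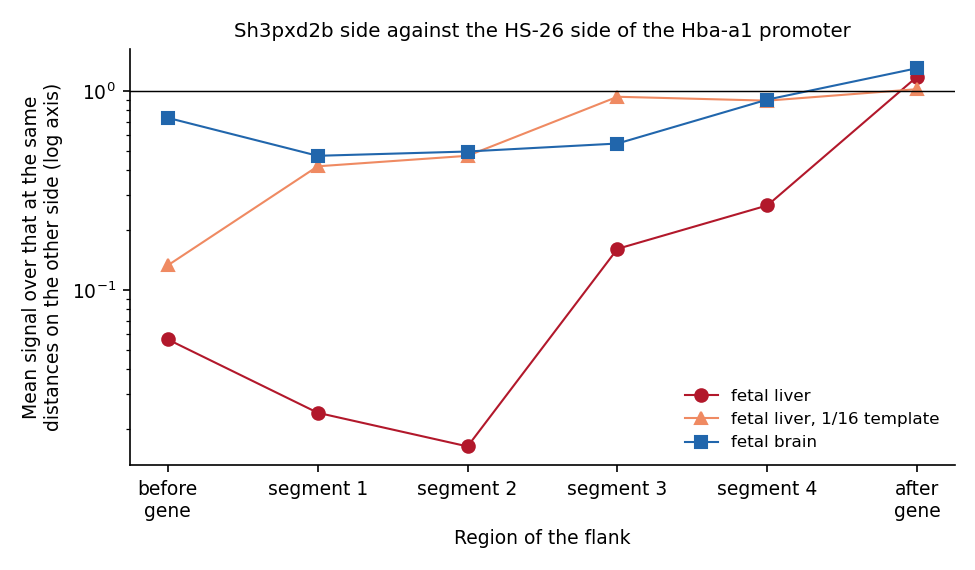
Mean signal in each region of the Sh3pxd2b side divided by that at the same distances from the Hba-a1 promoter toward HS-26 (log axis), with 1 line per library. The full-template liver line lies lowest from the stretch before the gene to segment 4, at 0.0164 in segment 2, and all 3 libraries lie between 1.02 and 1.3 after the gene.

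The profiles of the 2 viewpoints were compared in bins. Across 28 bins of 5 kb, the 2 brain libraries had a Spearman rho of 0.65 and a Pearson r of log2 relative signal of 0.79. Over the 8 bins before the gene rho was 0.74, and over the 20 bins from the gene on 0.39. The 2 full-template liver libraries had rho 0.78 over the flank, 0.66 before the gene and 0.47 from the gene on, with a Pearson r of 0.66, 0.51 and 0.47. Liver and brain from the Hba-a1 promoter had 0.86 before the gene and 0.02 from the gene on, and from HS-26 0.69 and 0.07. Across the viewpoints, full-template Hba-a1 liver and HS-26 brain had 0.47 from the gene on, and Hba-a1 brain and HS-26 liver -0.11. Agreement there thus did not follow the tissue alone, and the liver bins from the gene on lie largely on plateaus or at empty positions. Bins share smoothing windows with their neighbours and all profiles share the decrease with distance, so these values are descriptions.

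Regions elsewhere in the locus with a similar set of levels were sought among 14 bins of 10 kb, by the distance between log2 values over the 5 libraries. These bins lay outside the flank and beyond 10 kb of both viewpoints. The nearest was 32022000 to 32032000, at a distance of 0.401, followed by 32052000 to 32062000 (0.711) and 32042000 to 32052000 (0.811). In the nearest bin relative signal was 0.00822 in full-template liver, 0.245 with 1/16 template and 0.341 in brain from the Hba-a1 promoter, and 0.148 and 0.334 from HS-26. Levels like those of the Sh3pxd2b body, low in full-template liver and higher in brain, thus also occurred on the far side of HS-26.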

How the data were processed

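The 5 alpha-globin files hold signal values that the authors smoothed over 48 running windows of 2 to 49 kb and deposited without a header, relative to the level near the viewpoint. Each window has a middle, a higher and a lower value, in that order of size at 100% of positions. Window sizes follow from how many positions each leaves unfilled. The submitters' processing notes name mm9. Aligner, filters and read numbers: not given in the sources used here.

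The viewpoint was the position of highest signal (median over its libraries). Signals were divided by the mean beyond 10 kb over the reach shared by the libraries of a viewpoint. Ratios are log2 with 0.1 added, positions were matched within 500 bp and called past 2-fold, values under 1e-09 are empty, and positions on a region's edge count in both regions. The distance decay was a monotone fit over both sides of the viewpoint (scikit-learn 1.9.0, Python 3.11.15). With 1 library per group no p-value was computed. The steps were tested on made-up profiles with known answers. Named positions are up to 3 maxima per library at least 20 kb apart, away from the commonest value and empty positions, plus the extremes of each ratio and the 3 most similar bins. Region limits, members and lists were chosen with earlier results of these data known. Alternatives were other windows, scalings, pseudocounts, window values, summaries, a distance decay and the diluted library.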

Additional observations from a re-analysis of the deposited data

How the results depend on the processing

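No paired analysis was possible because each group is 1 library and the labels give no replicate numbers, and no library could be left out. For the whole flank and the gene body, values that moved by more than 0.70, the template pair's SD across bins, are given here, and for shares those that moved by over 1.5 times. That SD leaves out the offset of the pair, -1.16 over the flank and -1.78 over the gene body. It serves as a cut-off and does not measure the technical error of a region mean. Before and after the gene only values that turned sign are given, and others moved there with the sign kept. Over Sh3pxd2b all alternatives kept the sign in the 3 comparisons. Scaling to the median gave -0.82 for liver over brain from the Hba-a1 promoter, -0.36 from HS-26 and -0.87 for full over diluted template. A pseudocount of 1% gave -4.69 and -3.99 for the first and last, and 50% gave -0.90 and -0.60. With the distance decay divided out the 3 were -0.34, -0.11 and -0.45. The diluted liver library gave -0.56, and no scaling gave -2.09 from HS-26. Over the whole flank, scaling to the median turned the Hba-a1 comparisons, to 1.98 for the tissues and 2.21 for the templates, and gave -0.21 from HS-26. Median relative signal in full-template liver is 0.0191, against 0.571 in brain and 0.334 with 1/16 template, and dividing by so low a value raises that library, while the cause of the other moves was not tested. Other values for the flank were -2.72 and -1.0 with pseudocounts of 1% and 50% and -0.85 with the diluted library from the Hba-a1 promoter, -2.24 without scaling and -0.02 with the decay divided out from HS-26, and -1.90 for the templates with the median over positions. Before the gene the sign turned with scaling to the median, to 2.72, 0.03 and 3.31, and from HS-26 with the decay divided out, to 0.15. After it the template pair turned to 0.03 with the decay divided out. The flank share became 6.89% from the Hba-a1 promoter in liver with the higher window value and 9.56% from HS-26 in liver with 20 kb left out. Unknown depth and plateaus limit all low values.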

Other observations

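Past the flank, toward Ubtd2, 2 libraries of the Hba-a1 promoter went on to 32382894. Over these 36 positions the brain library averaged a relative signal of 0.461, 1.04 times its level over the Sh3pxd2b body, with its highest value, 0.766, at 32356894. The diluted liver library averaged 0.274, 1.01 times its level over the gene, and 24 of the 36 positions held its commonest value. In both libraries the signal thus stayed at about the level of the gene body up to the end of the file. The full-template liver library ends with the flank.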
